A study of Mus musculus with 14 samples.

Results

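Ribosome footprints of ABCF1 knockdown and Scram control mouse embryonic fibroblasts were compared gene by gene, in the 4 Ribo-seq libraries of those groups among the 14 libraries of the series. The members were chosen by assay and group label alone: Ribo_Scram replicates 1 and 2 and Ribo_shABCF1 replicates 1 and 2. The cells are C57BL/6J embryonic fibroblasts grown in DMEM with fetal bovine serum, either wild type or carrying a knockdown. The study gave Torin1, an mTOR inhibitor, at 250 nM over 2 h, with DMSO as its vehicle, and the 4 libraries carry no Torin1 label. Cycloheximide, which halts elongating ribosomes, was in the wash and in the lysis buffer. The labels give neither the hairpin sequences nor the number of lines or cultures, so p-values measure the spread between these libraries, which may be technical. METTL3 knockdown footprints (2 libraries), made beside the same Scram controls, and the RNA-seq libraries of the same groups are used for comparison.

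Ribosome profiling sequences the short mRNA pieces that ribosomes shield from nuclease, so that a gene's footprint level depends on both its mRNA and the number of ribosomes on it. ABCF1 is a cytoplasmic ATPase of the ABC-F family, which lacks membrane-spanning parts. It binds ribosomes and eIF2, the factor that carries the initiator tRNA, and has been described as helping initiation and start codon choice. eIF4F is the complex that recognises the mRNA cap, and the study asks about translation that does without it.

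Abcf1 footprints were lower in both knockdown libraries, at 34.4% of Scram in replicate 1 and 50.2% in replicate 2. No gene passed the test across all genes, Abcf1 included, with 0 of 10627 genes called higher (0%) and 0 called lower (0%) at an adjusted p under 0.05. Among the genes furthest from Scram in both replicates were, on the lower side, the cytochrome P450 Cyp1b1, the carbonyl reductase Cbr3, the transcription factor Klf2 and the small heat shock protein Cryab. On the higher side, Pgc, Ogn and Serping1 were among them, and all 12 genes described there had low footprint levels in Scram. By count, genes of the ribosome biogenesis and iron lists were more often lower than higher in both replicates and collagen modifying enzymes more often higher. The ribosome biogenesis median was mainly below 0 in replicate 1, and immediate early genes were far below Scram in replicate 2. METTL3 knockdown medians of both lists, against the same Scram libraries, are given beside them.

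Levels below are RPKM, read counts divided by coding length and library size, with each library scaled to a common median. Cell type marker levels alone are deposited RPKM without this scaling, from the highest listed transcript of each gene. Differences are on the log2(RPKM + 1) scale, ABCF1 knockdown minus Scram within the same replicate number. The added 1 makes a difference smaller than the true one for genes of low level. The 4 libraries held between 2809178 and 5155237 reads, recovered from the step size of the low values. Replicate 1 files list 1.18 and 1.22 transcripts for each gene and start at about 1 read. Replicate 2 files list 1.001 transcripts for each gene, and 95% of their values stand for 8 or more reads. Libraries of the same replicate number correlated at 0.96 to 0.98 across genes and those of different number at 0.54 to 0.56, so the replicates are 2 sets made or processed differently. Genes whose listed transcripts differ between the sets can have very different levels in replicates 1 and 2, and each difference is taken within a set.

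Fibroblast markers were present, with 12 of 14 listed in all 4 libraries and Lum and Fap in none. Their summed level, in unscaled RPKM, was 7428 and 8164 in Scram and 9078 and 10720 in ABCF1 knockdown. Single markers differed in direction: Col1a1 was at 2643 and 1925 in Scram and 2430 and 3087 in ABCF1 knockdown, S100a4 at 1011 and 2038 and at 3027 and 2246, and Pdgfra, Dcn and Prrx1 were lower in both replicates. Endothelial markers summed to 1.29 to 2.04 and neural markers to 1.1 to 2.14, with Pecam1, Cdh5, Snap25 and Gfap listed in none. Haematopoietic markers summed to 28.8 in Scram replicate 2 and to 10.0 to 11.4 in the other libraries, with Ptprc, Adgre1, Tyrobp and Cd3e listed in none. The higher sum came from Cd14 (13.9) and Cd68 (11.8), while Csf1r was at 3.85 and 3.09 in Scram replicates 1 and 2. Skeletal muscle markers, led by Acta1, summed to 87.5 and 10.9 in Scram and 48.7 and 8.38 in ABCF1 knockdown, with Myod1 listed in none. Epithelial markers summed to 213.7 to 286.4, led by Krt18 with Krt14 at 17.8 to 34.8, with Epcam listed in none. Pluripotency markers summed to 1.41 to 6.98, with Pou5f1 and Sox2 listed in none. In these bulk samples, fewer cells of a type and less RNA per cell cannot be told apart. The part of the summed fibroblast or muscle level in any result was not tested.

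Because ABCF1 has been linked to start codon choice, the start codons of Abcf1 and of the leading genes on either side are shown here. Each line holds 12 bases of 5′ UTR, the start codon in capitals and the next base, 5′ to 3′, from GENCODE M21 transcripts on GRCm38.
Abcf1: actgccgccgcgATGc
Cyp1b1: cttcatcgcagcATGg
Cbr3: tgtccctctgacATGt
Pgc: caaaccggcatcATGa
Ifi27: taactggtcctcATGg
The Abcf1 window is chr17:35969715-35969730 on the minus strand, that of Cbr3 chr16:93683313-93683328 on the plus strand, that of Pgc chr17:47726894-47726909 on the plus strand and that of Ifi27 chr12:103435444-103435459 on the plus strand. The window of Cyp1b1 is split by an intron, with its outer bases at chr17:79714308-79714697 on the minus strand. A favourable start codon context has a purine at position -3, counted from the A of the start codon as 1, and G at 4. Of 8435 genes listed in all 4 libraries with at least 12 bases of 5′ UTR, 86.8% had the purine, 53.8% had the G and 46.6% had both. Of the 11 named lower genes described below, 8 had the purine and 3 had both. Of the 12 named higher genes, 8 had the purine and 3 had both.

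Footprint differences are given by start codon context, as medians with no test. Genes with both features (3928) had medians of -0.01 in replicate 1 and 0.04 in replicate 2. Genes with neither (511) had medians of 0.04 and 0.03. Purine-only genes (3390) had -0.03 and 0.02, and G-only genes (606) had -0.02 and 0.01.

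The knockdown itself was checked on Abcf1 (ENSMUSG00000038762, transcript ENSMUST00000043757, chromosome 17, 35956819 to 35969761, minus strand). Its footprint level was 51.1 and 96.2 RPKM in Scram replicates 1 and 2 and 17.6 and 48.3 in ABCF1 knockdown. Both knockdown values were under both Scram values, although knockdown replicate 2 was close to Scram replicate 1. The change was -1.23 (SE 0.23, n = 2 per group), with differences of -1.49 and -0.98 and an adjusted p of 0.494 by limma with Benjamini-Hochberg adjustment. Abcf1 RNA differed by -1.72 and -1.07, and the footprint change minus the RNA change was 0.16 (SE 0.32, adjusted p = 0.995 by limma). In METTL3 knockdown, Abcf1 footprints were at 41.3 and 116.4 RPKM, on either side of the Scram values. The ribosome recycling ATPase Abce1 stood at 147.1 and 161.4 in Scram and 108.4 and 151.0 in ABCF1 knockdown, a change of -0.27 (SE 0.21). Of the 4 ABC-F and ABCE genes, the target Abcf1 and Abce1 were lower in both replicates. Abcf2 (-0.66 and 0.24) and Abcf3 (-0.08 and 0.07) differed in direction between the replicates.

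**Figure D1:**
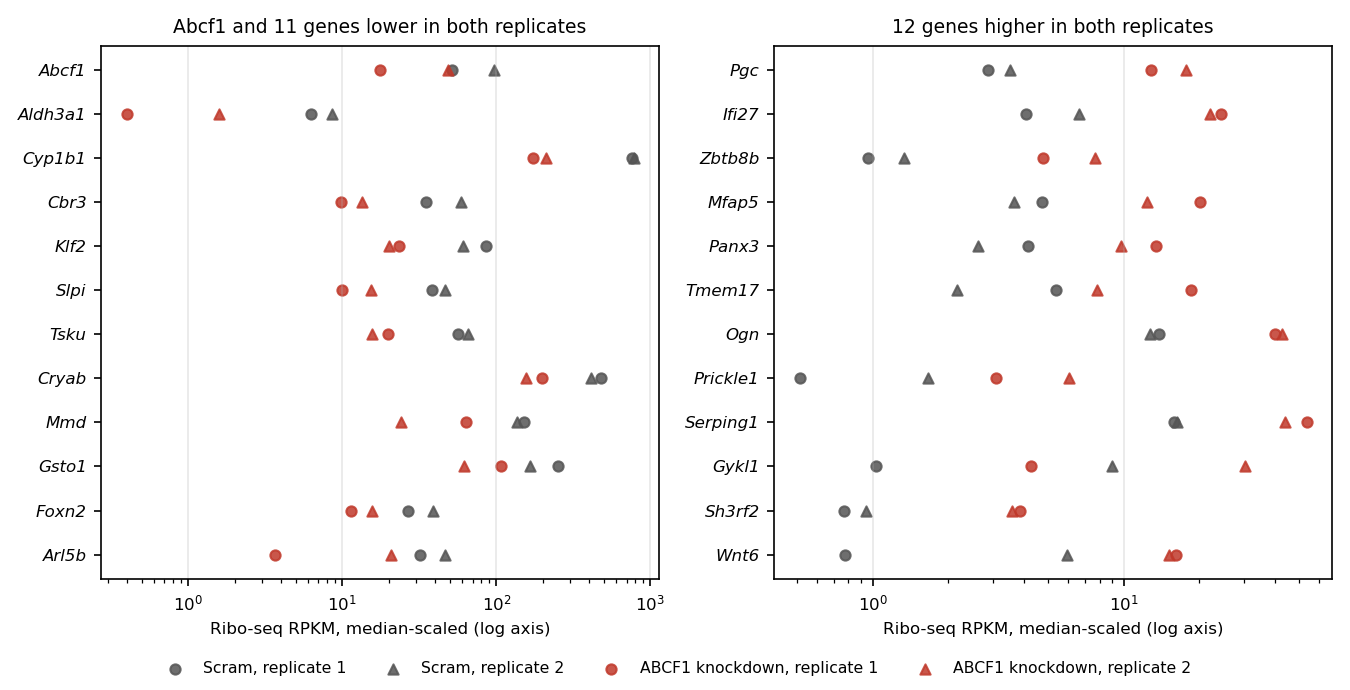
Median-scaled Ribo-seq RPKM (log axis) of Abcf1, the 11 named lower genes and the 12 named higher genes in each of the 4 libraries, with circles for replicate 1, triangles for replicate 2, grey for Scram and red for ABCF1 knockdown. Within a replicate number every named gene is displaced to the side of its panel, and the higher genes have Scram levels between 0.511 and 16.2 RPKM.

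Across genes, the replicates shared little of their differences. Of the 10627 genes tested, 8664 were listed in all 4 libraries, and 1963 lacked a value in at least 1. At an unadjusted p under 0.05, 393 genes were higher (3.7%) and 375 lower (3.53%). The lowest adjusted p was 0.301, and limma with voom weights on the recovered reads also called 0 genes. Of the 8664, 2333 genes were higher in both replicates (26.9%) and 2175 lower in both (25.1%). By more than 0.5 in both replicates, 273 were higher (3.15%) and 215 lower (2.48%), against 244 genes past 0.5 in opposite directions. Across these genes, which are not independent replicates, Pearson's r of the 2 differences was 0.13 and Spearman's rho 0.11. The spread between replicates was 0.63 for genes under 20 reads and 0.54 from 20 to 100 reads. It was 0.42 both from 100 to 500 reads and at 500 reads or more. At 500 reads or more, r of the 2 differences was still 0.10, and 49.4% of genes had the same sign in both replicates. The median SE of a change was 0.26.

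Since no gene was called, the 23 genes below are from those listed in all 4 libraries, with a mean of 20 or more reads, whose smaller difference of the 2 replicates was the largest, 11 lower and 12 higher. They are a description of the extremes and not a set of calls. Adjusted p-values (limma, Benjamini-Hochberg) ran from 0.301 to 0.611 for the lower genes and from 0.301 to 0.568 for the higher genes. Just outside the lower set was Angptl2, with differences of -1.49 and -1.11, and just outside the higher set was Fgf18, with 1.33 and 1.18.

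Of the 11 lower genes, Cyp1b1 had the lowest p. Cyp1b1, a cytochrome P450 that oxidises aromatic compounds and steroids (GRCm38 chromosome 17, 79706953 to 79715041, minus strand), stood at 757.8 and 777.9 RPKM in Scram and 172.3 and 211.3 in ABCF1 knockdown. The Scram values were close together, and the knockdown values were 22.7% and 27.2% of them. The change was -2.0 (SE 0.20, unadjusted p = 3.0e-05, adjusted p = 0.301). Its RNA differed by -1.35 and -2.34, and the footprint change minus the RNA change was -0.16 (SE 0.42). Aldh3a1, an aldehyde dehydrogenase, stood at 6.25 and 8.55 in Scram and 0.397 and 1.59 in ABCF1 knockdown, from 3 and 6 reads in the latter. Cbr3, a carbonyl reductase, stood at 34.7 and 59.0 in Scram and at 9.73 and 13.4 in ABCF1 knockdown, a change of -1.90 (SE 0.22). Cbr2, another carbonyl reductase and not among the 23 genes, lay the other way, at 5.21 and 10.9 in Scram and 21.1 and 20.1 in ABCF1 knockdown. Gsto1, a glutathione transferase, stood at 250.2 and 165.1 in Scram and at 107.0 and 61.7 in ABCF1 knockdown, a change of -1.31 (SE 0.20). In Cyp1b1, Aldh3a1, Cbr3 and Gsto1 both ABCF1 knockdown libraries were below both Scram libraries. These genes were picked for large differences, and the share of all genes separated in this way was not counted. In METTL3 knockdown the changes were -0.67 for Cyp1b1, -2.61 for Aldh3a1, -0.26 for Cbr3 and -0.57 for Gsto1.

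Cyp1b1 and Aldh3a1 are known targets of the aryl hydrocarbon receptor, whose binding core is GCGTG. The part of this receptor in their differences was not tested. The promoter of Cyp1b1 is shown since this gene had the lowest p of all genes tested, from RefSeq on GRCm38.p6, chr17:79715012-79715311 on the minus strand, with the core in capitals.
Cyp1b1: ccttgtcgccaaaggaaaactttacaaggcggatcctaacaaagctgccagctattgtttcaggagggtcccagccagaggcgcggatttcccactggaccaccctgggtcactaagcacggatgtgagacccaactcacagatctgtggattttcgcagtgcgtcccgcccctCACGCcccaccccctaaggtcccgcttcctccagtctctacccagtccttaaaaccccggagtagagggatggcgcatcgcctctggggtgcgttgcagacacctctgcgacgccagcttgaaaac
It runs from 250 bases before the start of transcription to 50 bases after it and holds the core 1 time, on the reverse strand (CACGC). The core is in 10622 of 32817 promoters of that length on either strand (32.4%).

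Slpi, a secreted inhibitor of leukocyte proteases, stood at 38.2 and 46.4 in Scram and 10.0 and 15.4 in ABCF1 knockdown. Tsku, a secreted leucine-rich protein of developmental signalling, stood at 56.8 and 65.4 in Scram and 19.8 and 15.6 in ABCF1 knockdown. Its RNA differences were -0.41 and -2.59. Footprint changes in METTL3 knockdown were -0.72 for Slpi and -1.7 for Tsku.

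The other lower genes were Klf2, Cryab, Mmd, Foxn2 and Arl5b. Klf2, a transcription factor that answers growth signals and shear stress (chromosome 8, 72319033 to 72321656, plus strand), stood at 86.1 and 61.0 RPKM in Scram and 23.2 and 19.9 in ABCF1 knockdown, a change of -1.71 (SE 0.22). In METTL3 knockdown Klf2 stood at 76.6 and 78.1, and the direct difference between the knockdowns was -1.80 (SE 0.22, adjusted p = 0.089 by limma). Cryab, the small heat shock protein alpha-B crystallin (chromosome 9, 50752907 to 50756543, plus strand), stood at 479.7 and 412.3 in Scram and 198.5 and 154.8 in ABCF1 knockdown, a change of -1.34 (SE 0.22). Cryab RNA differed by only -0.09 and -0.17, and its footprint change minus RNA change was -1.21 (SE 0.36, adjusted p = 0.995 by limma). In METTL3 knockdown Cryab stood at 156.7 and 180.5. Mmd, a membrane protein of macrophage differentiation, had differences of -1.24 and -2.46. The forkhead factor Foxn2 had -1.17 and -1.26, and the small GTPase Arl5b, which acts in Golgi traffic, had -2.81 and -1.13. Foxn2 RNA lay the other way, by 0.10 and 0.34. Footprint changes in METTL3 knockdown were -1.53 for Mmd, -0.69 for Foxn2 and -0.29 for Arl5b.

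Of the 11 lower genes, 6 were listed in all 4 RNA-seq libraries of these groups. Of these, 5 had lower RNA in both replicates, all but Foxn2. The share of all genes with lower RNA in both replicates was not counted. Over all 10192 genes of the RNA-seq fit, 467 were lower and 184 higher at an unadjusted p under 0.05 by limma. The set was well covered, with a median of 179 reads per library. Cyp1b1 and Tsku had footprint changes minus RNA changes of -0.16 and -0.24. Cryab, Gsto1, Mmd and Foxn2 had footprint changes 0.98 to 1.43 further down than their RNA. All were picked by their footprint differences, which can by itself widen the gap to RNA.

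The 12 higher genes had low levels in Scram. Pgc, the stomach protease precursor pepsinogen C (chromosome 17, 47726842 to 47734482, plus strand), stood at 2.89 and 3.51 RPKM in Scram and 12.9 and 17.7 in ABCF1 knockdown, from 16 reads in each Scram library and 84 and 58 in the knockdown libraries. These are 4.45-fold and 5.04-fold, a change of 1.94 (SE 0.22, adjusted p = 0.301). Pgc stood at 11.9 and 14.6 in METTL3 knockdown, and the direct difference between the knockdowns was 0.18 (SE 0.22). Ogn, a small proteoglycan of collagen matrix also called osteoglycin (chromosome 13, 49608046 to 49624501, plus strand), stood at 13.8 and 12.7 in Scram and 40.0 and 42.5 in ABCF1 knockdown. Ogn was 2.91-fold and 3.35-fold higher, a change of 1.57 (SE 0.21). Its RNA was nearly level, with differences of 0.11 and 0.09, and its footprint change minus RNA change was 1.47 (SE 0.48, adjusted p = 0.995 by limma). In METTL3 knockdown Ogn footprints stood at 27.4 and 23.9. Serping1, the C1 inhibitor of complement (chromosome 2, 84765387 to 84775404, minus strand), stood at 15.9 and 16.2 in Scram and 53.5 and 43.7 in ABCF1 knockdown, with RNA higher by 1.44 and 0.56. In METTL3 knockdown Serping1 stood at 11.8 and 10.3, and the direct difference was 2.04 (SE 0.21, adjusted p = 0.0794 by limma).

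Mfap5, a protein of elastic microfibrils, stood at 4.73 and 3.66 in Scram and 20.0 and 12.4 in ABCF1 knockdown. Ifi27, an interferon-inducible gene, stood at 4.08 and 6.61 in Scram and 24.4 and 22.1 in ABCF1 knockdown. Both genes, picked for large differences, had every knockdown value above every Scram value, and the share of all genes that do was not counted. Wnt6, a secreted developmental ligand, stood at 0.777 and 5.91 in Scram and 16.1 and 15.1 in ABCF1 knockdown, with 4 reads in Scram replicate 1, so its fold in replicate 1 is imprecise. Prickle1, a planar polarity protein, had differences of 1.44 and 1.41 with RNA differences of -0.16 and -0.44. Panx3, a channel protein of skeletal cells, had 1.49 and 1.57. Zbtb8b, a zinc finger gene, had 1.56 and 1.89, and Tmem17, a membrane protein of the ciliary base, had 1.61 and 1.48. Gykl1, a glycerol kinase-like gene, had 1.37 and 1.66, and Sh3rf2, an SH3 and RING finger protein, had 1.45 and 1.24. These 12 genes had a median of 41 reads per library. Of the 5 listed in all 4 RNA-seq libraries, 3 had higher RNA in both replicates, all but Panx3 and Prickle1. The share of all genes with higher RNA in both replicates was not counted.

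**Figure D2:**
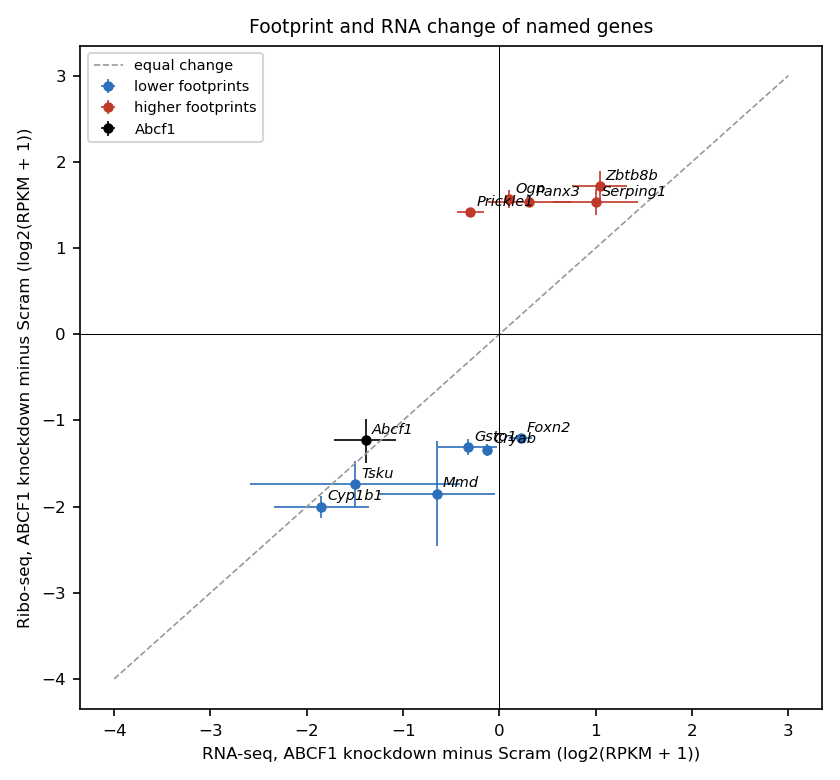
Ribo-seq change (y axis) against RNA-seq change (x axis), ABCF1 knockdown minus Scram on log2(RPKM + 1), for Abcf1 and the 11 named genes listed in all 4 libraries of both assays. Bars run from 1 replicate's difference to the other's, and Cyp1b1 lies near the dashed line of equal change while Ogn, Prickle1, Cryab and Foxn2 lie away from it.

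No gene passed the test of a footprint change that differs from its RNA change. The test of footprint change minus RNA change covered 9924 genes and called 0 (0%), with 345 at an unadjusted p under 0.05. RNA-seq itself called 0 of 10192 genes (0%), with 651 at an unadjusted p under 0.05. Without the RNA-seq library of ABCF1 knockdown replicate 1 the RNA-seq fit called 102 higher and 81 lower, with the remaining library assumed to vary like the other groups, and the voom fit called 1 gene. Across 7604 genes listed in all 4 libraries of both assays, Pearson's r between footprint and RNA changes was 0.36, and 0.41 and 0.33 within replicates 1 and 2.

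The gene lists, 37 in all with 4 to 78 members, were taken by function, and 0 of their members passed the test over all genes. Counts are of members listed in all 4 libraries and are to be read against 26.9% of all such genes higher in both replicates and 25.1% lower in both. The median change of all 8664 genes was 0.00, with medians of -0.02 and 0.03 in the replicates.

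Of 32 ribosome biogenesis genes, which build the ribosomal subunits in the nucleolus, 20 were lower in both replicates (62.5%) and 0 higher in both. The median change was -0.41, from -0.76 in replicate 1 and -0.08 in replicate 2, so the lower levels were mainly in replicate 1. The median was -0.08 without Scram replicate 1 and -0.76 without Scram replicate 2, which restates the replicate medians. METTL3 knockdown, against the same Scram libraries, had medians of -0.65 and 0.06. The RNA of the same 32 genes had a median change of -0.52, with medians of -0.92 in replicate 1 and -0.17 in replicate 2. Ddx21, an RNA helicase of rRNA synthesis, stood at 75.4 and 93.4 RPKM in Scram and 42.1 and 61.4 in ABCF1 knockdown, a change of -0.71 (SE 0.20). Ltv1, an assembly factor of the small subunit, stood at 62.8 and 43.2 in Scram and 36.9 and 29.6 in ABCF1 knockdown, a change of -0.64 (SE 0.20). Utp15, of the small subunit processome, had differences of -0.82 and -0.34. Nop10, of the pseudouridylating H/ACA particles, had -0.91 and -0.23.

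Of 34 large subunit proteins of the ribosome, 11 were higher in both replicates (32.4%) and 3 lower in both (8.82%), with a median of 0.05 and replicate medians of -0.11 and 0.14. Of 27 small subunit genes, 6 were higher in both (22.2%) and 1 lower in both (3.7%), with a median of -0.10. The other 20 differed in direction between the replicates, whose medians were -0.32 and 0.13. Rpl14 stood at 442.9 and 1382 in Scram and 633.9 and 1818 in ABCF1 knockdown, a change of 0.46 (SE 0.20). Rplp1, a stalk protein, had differences of -0.40 and -0.29. Their RNA medians were -0.36 and -0.26. Of 70 mitochondrial ribosomal proteins, 18 were higher in both and 12 lower in both, with a median of 0.02. Ribosomal protein genes have many processed copies in the genome, and the labels do not say how reads shared with those copies were assigned, so their levels are uncertain.

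Of 18 eIF2, eIF2B and start-site factors of initiation, 9 were lower in both replicates and 2 higher in both, with a median of -0.26 and replicate medians of -0.47 and -0.06. The lower levels were thus mainly in replicate 1. Eif1, which guards start codon fidelity, stood at 1840 and 2490 RPKM in Scram and 1051 and 1871 in ABCF1 knockdown, a change of -0.61 (SE 0.28). Eif6, which keeps the large subunit from joining, stood at 322.4 and 527.9 in Scram and 207.5 and 440.9 in ABCF1 knockdown, a change of -0.45 (SE 0.20). For both genes the Scram ranges overlapped the knockdown ranges, since the replicate sets differ in level. Of 12 eIF3 genes, 4 were lower in both and 0 higher in both, with replicate medians of -0.44 and 0.07. Eif3a, the scaffold subunit, had differences of -0.44 and -0.63, and Eif3g had -0.73 and -0.12. The 13 eIF4F genes split evenly, 3 lower and 3 higher in both, with a median of -0.11.

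Stress response genes differed in opposite directions in the replicates. Atf4, the transcription factor whose translation rises when eIF2 is phosphorylated, differed by 1.21 in replicate 1 and -0.60 in replicate 2, a change of 0.30 (SE 0.42). The 26 ATF4 targets had medians of 0.39 and -0.36, with 2 higher in both and 5 lower in both. The 9 ISR regulators had 1 higher and 2 lower in both. Slc38a2, a glutamine transporter, was lower in both, at 300.6 and 310.8 RPKM in Scram and 217.7 and 189.8 in ABCF1 knockdown, a change of -0.59 (SE 0.22). Slc1a4, a neutral amino acid transporter, differed by 0.39 and 0.50.

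Iron genes are shown with their hairpins, because the element is a known sequence that controls translation in a 5′ UTR and mRNA stability in a 3′ UTR through iron regulatory proteins. A script searched both UTRs on the transcript strand for a C, 5 bases, the loop CAGTGN with any last base but G, and 5 bases that pair with the first 5. The loop is in capitals.
Fth1: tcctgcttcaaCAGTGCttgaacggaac
Ftl1: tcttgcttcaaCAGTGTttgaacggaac
Tfrc: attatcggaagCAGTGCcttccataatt
The Fth1 site is in the 5′ UTR at chr19:9982733-9982760 on the plus strand and the Ftl1 site in the 5′ UTR at chr7:45459779-45459806 on the minus strand. The Tfrc site is the first of 4 in its 3′ UTR, at chr16:32631220-32631247 on the plus strand, all from GENCODE M21 on GRCm38. The pattern was in 9 of 8080 5′ UTRs (0.111%) and 49 of 8546 3′ UTRs (0.573%) of genes listed in all 4 libraries.

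Not every gene of the iron list matched the pattern, and Ireb2, Slc11a2, Epas1 and Aco1 had no match in either UTR. Of the 8 genes of the list that were listed in all 4 libraries, 5 were lower in both replicates (62.5%) and 0 higher in both, with a median of -0.33, which was -0.22 without ABCF1 knockdown replicate 1. Fth1, ferritin heavy chain, which stores iron (chromosome 19, 9982646 to 9985098, plus strand), stood at 605.1 and 957.2 RPKM in Scram and 452.5 and 542.9 in ABCF1 knockdown, a change of -0.62 (SE 0.21). Ftl1, ferritin light chain, stood at 101.8 and 104.1 in Scram and 71.2 and 46.3 in ABCF1 knockdown, a change of -0.83 (SE 0.37). Both ferritins have processed copies in the genome, which makes their levels uncertain. Tfrc, the transferrin receptor that takes up iron, stood at 211.7 and 93.3 in Scram and 137.1 and 77.9 in ABCF1 knockdown, a change of -0.44 (SE 0.21). Ireb2, an iron regulatory protein, stood at 35.1 and 27.5 in Scram and 23.6 and 17.9 in ABCF1 knockdown, a change of -0.57 (SE 0.20). Ferritins, with the hairpin in the 5′ UTR, and Tfrc, with it in the 3′ UTR, were thus lower in both replicates alike. RNA of Tfrc differed by 0.01 and 0.09. The RNA median of the 8 genes was -0.31, with -0.12 and -0.48 in the replicates, beside the footprint median of -0.33.

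**Figure D3:**
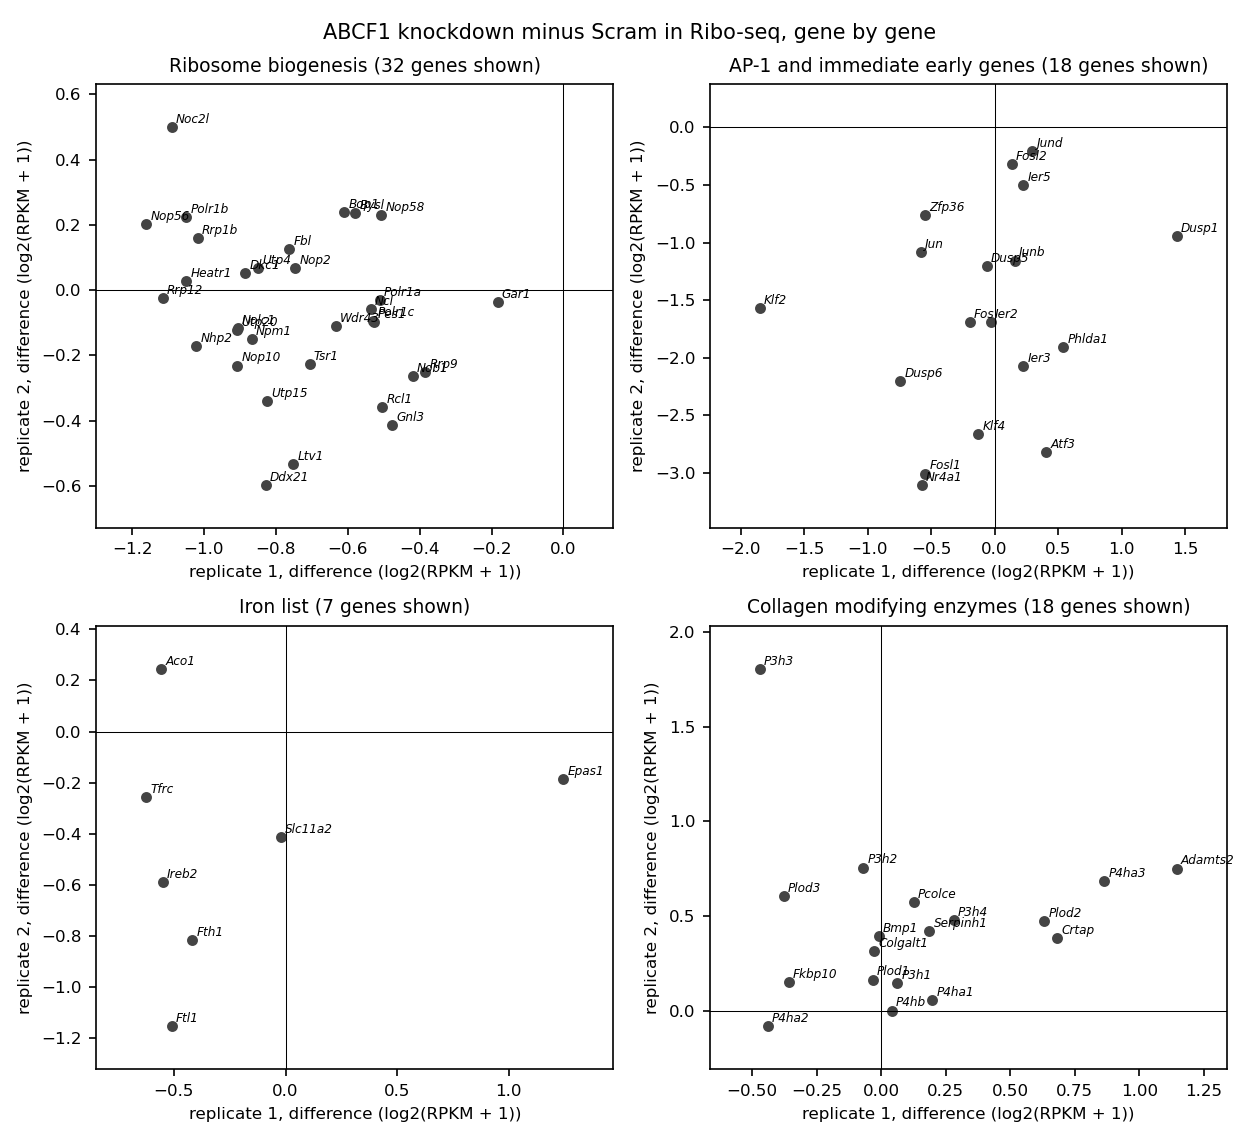
Difference in replicate 1 (x axis) and replicate 2 (y axis), ABCF1 knockdown minus Scram on log2(RPKM + 1), for genes of 4 lists that were listed in all 4 libraries, with 1 gene of the iron list not shown. Ribosome biogenesis genes spread along replicate 1 below 0, immediate early genes spread down replicate 2, 5 genes of the iron list are low in both, and 10 of 18 collagen modifying enzymes are high in both.

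Immediate early genes, which growth signals switch on within minutes, were low in replicate 2. Of 18 in the AP-1 and immediate early list, 10 were lower in both replicates (55.6%) and 0 higher in both. The median was -0.05 in replicate 1 and -1.63 in replicate 2. RNA medians were 0.64 and -1.34. METTL3 knockdown, against the same Scram libraries, had footprint medians of -0.25 and -1.63. Fosl1, the AP-1 subunit Fra-1, stood at 126.4 and 326.9 RPKM in Scram, 86.2 and 39.9 in ABCF1 knockdown and 28.5 and 20.9 in METTL3 knockdown. Dusp6, a phosphatase that restrains ERK, stood at 83.2 and 198.3 in Scram and 49.3 and 42.4 in ABCF1 knockdown. Jun stood at 41.1 and 85.5 in Scram and 27.1 and 39.8 in ABCF1 knockdown. For Fosl1, Dusp6 and Jun, Scram replicate 2 was the highest library. Leaving out Scram replicate 2 took the median change of the list from -0.85 to -0.09, and leaving out ABCF1 knockdown replicate 2 took it to -0.38. It was -1.54 without Scram replicate 1 and -1.30 without ABCF1 knockdown replicate 1. Whether Scram replicate 2 or the knockdown libraries moved cannot be told apart with 1 library of each in a set.

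NF-kB inflammatory genes had footprint medians of -0.30 in replicate 1 and -0.61 in replicate 2, with RNA medians of -0.22 and -1.56. METTL3 knockdown had footprint medians of -0.19 and -1.73 for them, against the same Scram libraries. Of 13, 6 were lower in both and 1 higher in both, with a median of -0.66, which became -0.04 without Scram replicate 2 and -1.25 without Scram replicate 1. Ptgs2, the prostaglandin synthase COX-2, stood at 45.7 and 293.8 RPKM in Scram and 32.8 and 15.3 in ABCF1 knockdown, so its change of -2.32 (SE 0.82) came mainly from replicate 2. Vcam1, an adhesion molecule, was lower alike in both, at 101.2 and 131.4 in Scram and 47.0 and 56.4 in ABCF1 knockdown, a change of -1.15 (SE 0.23). Tnfaip3, a brake on NF-kB, had differences of -0.80 and -1.38, and Rela, an NF-kB subunit, had -0.57 and -0.52. Of the haematopoietic markers, Cd14 and Cd68 were highest in Scram replicate 2 as well, while Csf1r was highest in Scram replicate 1. The part of these markers in the NF-kB values was not tested. Of 13 interferon genes, 5 were higher in both and 2 lower in both, with Ifit2 at 0.95 and 0.51 and Bst2 at -0.36 and -0.66.

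Of 28 collagen and matrix genes, 7 were higher in both replicates (25.0%) and 8 lower in both (28.6%), shares near those over all genes, with a median of 0.13 that became -0.27 without Scram replicate 2. Fn1, fibronectin, stood at 468.1 and 213.7 RPKM in Scram and 186.8 and 139.5 in ABCF1 knockdown, a change of -0.97 (SE 0.24). Fn1 RNA was lower by 1.53 and 0.85 as well. Col3a1, a fibrillar collagen, stood at 315.6 and 415.6 in Scram and 459.1 and 910.5 in ABCF1 knockdown, a change of 0.83 (SE 0.22), with RNA differences of 0.10 and 0.20. Col12a1 stood at 18.5 and 9.09 in Scram and 31.0 and 18.6 in ABCF1 knockdown, a change of 0.84 (SE 0.25). Every knockdown value of Fn1 was below both Scram values, every one of Col3a1 above, and those of Col12a1 were above too. These 3 genes were picked by low p, and the share of all genes separated in this way was not counted.

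Of 18 collagen modifying enzymes, 10 were higher in both replicates (55.6%) and 1 lower in both, with a median of 0.25 and replicate medians of 0.05 and 0.41. The median was 0.03 without Scram replicate 2, 0.15 without ABCF1 knockdown replicate 2 and 0.44 without Scram replicate 1. Adamts2, which trims procollagen, stood at 1.87 and 4.41 RPKM in Scram and 5.35 and 8.11 in ABCF1 knockdown, a change of 0.95 (SE 0.28). Plod2, a lysyl hydroxylase, stood at 33.0 and 41.2 in Scram and 51.6 and 57.5 in ABCF1 knockdown, a change of 0.55 (SE 0.21). Crtap, of the collagen prolyl 3-hydroxylase complex, had differences of 0.68 and 0.38, and Pcolce, an enhancer of procollagen trimming, had 0.13 and 0.57. The RNA median of the list was -0.02. The summed fibroblast marker level, in unscaled RPKM, was higher in both knockdown libraries. S100a4 was the marker that differed most in replicate 1 and Col1a1 in replicate 2. The part of the summed level here was not tested.

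Of 19 contractile genes that serum response factor drives, 9 were lower in both and 4 higher in both. Zyx, zyxin of focal adhesions, stood at 850.6 and 512.2 RPKM in Scram and 478.4 and 315.4 in ABCF1 knockdown, a change of -0.76 (SE 0.26). Vcl, vinculin of the same structures, had differences of -0.84 and -0.45, and Tagln2, an actin-binding protein, had -0.55 and -0.29. Tpm2 went the other way, with 0.94 and 0.12. The list median was -0.09, with replicate medians of -0.07 and -0.13.

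Of 25 lysosome and autophagy genes, 11 were lower in both (44.0%) and 1 higher in both, with a median of -0.24 and replicate medians of 0.04 and -0.35. METTL3 knockdown had medians of -0.07 and -0.63 against the same Scram libraries. Ctsb, the protease cathepsin B, stood at 1565 and 1399 RPKM in Scram and 964.4 and 996.6 in ABCF1 knockdown, a change of -0.59 (SE 0.19), with RNA differences of 0.42 and -0.45. Cathepsin L, Ctsl, had footprint differences of -0.27 and -0.56, and cathepsin D, Ctsd, -0.34 and -0.43. Of 22 glycolysis and hypoxia genes, 8 were lower in both and 0 higher in both, with Slc2a1, the glucose transporter GLUT1, at -0.33 and -0.89 and Pgam1, a glycolytic mutase, at -0.80 and -0.27. Of 17 heat shock chaperones, 7 were lower in both and 0 higher in both, with Dnajb1 at -0.26 and -0.50. Replicate medians of the glycolysis list were -0.07 and -0.28, and -0.46 and -0.32 in METTL3 knockdown. Those of the heat shock list were -0.26 and -0.04, and -0.39 and -0.32 in METTL3 knockdown. Of 20 endoplasmic reticulum chaperones, 9 were higher in both (45.0%) and 2 lower in both. Edem1, which sends misfolded glycoproteins to degradation, had 0.70 and 0.30, Pdia6, a disulfide isomerase, 0.24 and 0.39, and Herpud1, a degradation adaptor, -0.47 and -0.58. Of 20 sterol synthesis genes, 9 were lower in both and 3 higher in both, with Idi1 at -0.77 and -0.62 and Fdft1 at -0.58 and -0.46. Replicate medians of the sterol list were 0.0 and -0.32, and those of its RNA were -0.17 and -1.13. METTL3 knockdown had footprint medians of 0.23 and -0.66 for it, against the same Scram libraries.

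Among growth genes, Hmga2, a chromatin architecture factor of embryonic cells (chromosome 10, 120361275 to 120476469, minus strand), was lower. It stood at 155.5 and 131.4 RPKM in Scram, 78.6 and 65.5 in ABCF1 knockdown and 23 and 17.2 in METTL3 knockdown. The change with ABCF1 knockdown was -0.98 (SE 0.20, adjusted p = 0.494 by limma), with near-equal differences of -0.98 and -0.99. Hmga2 RNA differed by -0.32 and 0.05. Bcl2, which blocks apoptosis, differed by 0.49 and 0.54, and the growth factor receptor Igf1r by 0.60 and 0.37. Of 9 such eIF4E-sensitive mRNAs, 3 were higher in both and 2 lower in both. Plk2, a kinase that p53 and growth signals induce, stood at 68.3 and 142.5 in Scram and 34.1 and 35.0 in ABCF1 knockdown, while Phlda3, another p53 target, differed by 0.79 and 0.51. The replication clamp Pcna had -0.75 and -0.36. Of 9 m6A writer and eraser genes, 2 were higher in both and 3 lower in both, with the writer subunit Wtap at -0.47 and -0.41.

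**Figure D4:**
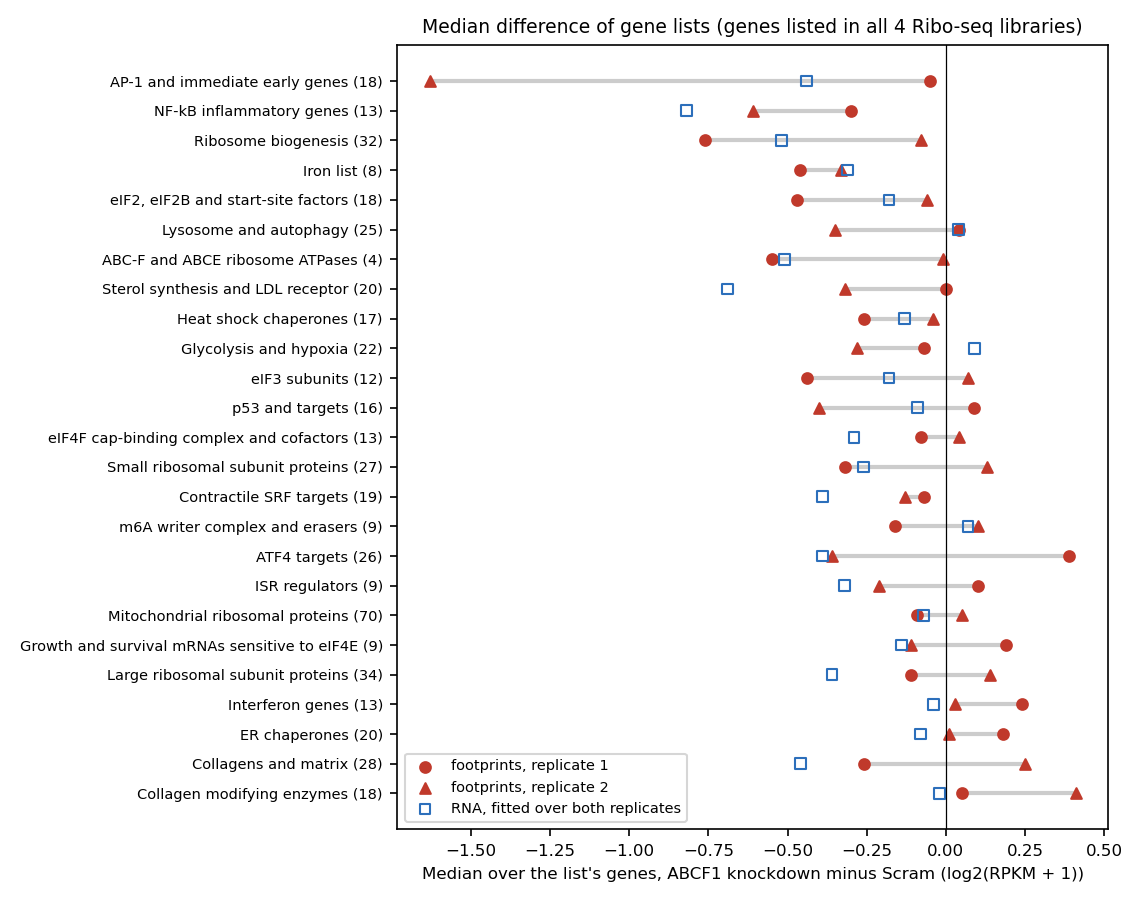
Median difference of 25 gene lists, ABCF1 knockdown minus Scram on log2(RPKM + 1), with red circles for footprints in replicate 1, red triangles for replicate 2 and open blue squares for RNA. The number of genes listed in all 4 Ribo-seq libraries is in brackets, and immediate early genes have the widest gap between replicates, from -0.05 to -1.63.

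The other 12 lists, on elongation, tRNA synthetases, amino acid transport, m6A readers, integrins, proteasome, chaperonin, respiration, replication, mitosis and polyamines, had medians between -0.17 and 0.08. Over all 37 lists, 20 had more members lower than higher in both replicates, 13 had more higher and 4 as many.

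Set directly against METTL3 knockdown, 5 of 10627 genes were called (0.047%). Mfap5 was higher in ABCF1 knockdown, and it was not listed in either METTL3 knockdown library, with a difference of 4.07 (SE 0.28, adjusted p = 0.02 by limma). Cbr2 stood at 21.1 and 20.1 RPKM in ABCF1 knockdown and at 0.531 in METTL3 knockdown replicate 1, and it was not listed in METTL3 knockdown replicate 2. Angptl7, a secreted angiopoietin-like protein, went the other way, at 0.712 and 23.4 in ABCF1 knockdown, 3.15 and 41.9 in Scram, and 15.8 and 211.6 in METTL3 knockdown. Mmp23, a membrane metalloprotease, stood at 2.61 in ABCF1 knockdown replicate 1 and was not listed in replicate 2, with 11.9 and 7.26 in Scram and 34.2 and 12.5 in METTL3 knockdown. Unlisted genes were filled with 0 before 1 was added, so the differences of Mfap5, Cbr2 and Mmp23 depend on that fill and on the added 1. Without either library of ABCF1 knockdown the direct comparison called 0 genes, and fits without a METTL3 knockdown library were not run.

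Few genes were found in 1 group alone. A total of 34 genes were listed in both ABCF1 knockdown libraries and neither Scram library, and 0 of them had 10 or more reads in both. The opposite held for 14 genes, of which Asgr1, with 18 and 11 reads in Scram, was the one with 10 or more in both. The files of replicate 2 leave out genes of few reads, so a missing gene is not a count of 0.

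Transcript features were weakly related to the footprint differences. Across 8654 genes, which share libraries and depth, Spearman's rho with the change was -0.18 for mean level, 0.10 for the GC content of the coding sequence, 0.05 for coding length, -0.03 for 5′ UTR length and 0.00 for 3′ UTR length. The 2164 genes with mean levels up to 8.76 RPKM had a median change of 0.10, and the 2164 genes from 71.9 RPKM had -0.05.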

How the data were processed

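The authors deposited 1 RPKM value per transcript and library; per the submitters' processing notes, cutadapt, Bowtie and GRCm38 were used, and their versions, the counting and the treatment of shared reads are not stated there. Per the labels' protocols, fragments of 25-35 nt (Ribo-seq) or 40-60 nt (RNA-seq) were cut from gels. Of 22453 transcripts, 22356 matched GENCODE M21; 1 transcript was kept per gene. From the low values, 98.65% to 98.83% of Ribo-seq and 80.46% to 85.45% of RNA-seq values gave whole reads (within 0.02 of a read). Genes that a library does not list were filled with 0. RPKM was scaled to a common median; log2(RPKM + 1) was tested with limma 3.58.1 in R 4.3.3 (trend, Benjamini-Hochberg, 0.05) over 6 libraries (Scram, METTL3 and ABCF1 knockdown) with replicate number as a block, for genes with mean RPKM of at least 1 listed in 3 or more libraries. Same-numbered libraries deviated together (0.94 to 0.96 in Ribo-seq, 0.87 to 0.92 in RNA-seq). RNA-seq was fitted alike, and both assays jointly over 12 libraries for the interaction. Residual degrees of freedom were 2 per assay. Named genes followed a rule: called genes first, otherwise the largest smaller difference of both replicates; in lists, members of lowest p. Of these, 2 genes are not reported here. Members and lists were chosen with earlier results of these data known. Scripts were tested on simulated data. Torin1 libraries were not used in the comparisons, apart from 1 in an alternative fit.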

Additional observations from a re-analysis of the deposited data

How the results depend on the processing

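In Ribo-seq, 0 genes were called higher or lower against Scram under each of the 16 alternatives. Without the replicate block (no pairing by number) 0 were called, and genes at an unadjusted p under 0.05 went from 393 higher and 375 lower to 61 and 66. With the voom fit, chosen after seeing the data, they were 635 and 344, and without scaling 486 and 292. The 5 genes called between the knockdowns (3 higher, 2 lower) depended on the settings. Counts higher and lower were 0 and 0 without the replicate block, without a filter on low values and with voom; 1 and 1 without scaling; 1 and 0 with a pseudocount of 0.5; 5 and 4 for genes listed in all 6 libraries; and 7 and 7 with the highest transcript value. With a pseudocount of 5, 6 were higher, with a mean RPKM of at least 5, 9 were higher, and with quantile normalization 1 was lower. Leaving out 1 library gave 0 to 3 higher and 0 to 2 lower. RNA-seq gave 0 to 102 higher and 0 to 81 lower when 1 library was left out, and 1 higher with voom. Of the genes named, Atf4, Abcf2 and Abcf3 differed in direction between the replicates, so their sign depends on which Scram library is left out. Atf4 (0.30) ranged from -0.49 to 1.1 with single libraries left out. Apart from these genes, no named gene changed sign under any setting. The cause was not tested. Genes under 20 reads had the widest spread, so depth limits small changes there. Genes of 500 reads or more did not have the same sign in both replicates more often (49.4%, against 49.7% under 20 reads).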
